A study of Mus musculus with 2 samples.

Results

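The complement components and receptors described here were 9 genes matched by symbol among the 55450 genes listed in the count matrices: C1qa, C1qb, C1qc, C3, C6, Cfb, Cfp, C3ar1 and C5ar1. All 9 were found and each is followed across cell types that were gated by marker genes. Complement is a set of proteins of blood and tissue that label particles for uptake by phagocytes, attract leukocytes and can pierce membranes. C1q, built from the products of C1qa, C1qb and C1qc, starts the classical pathway when it binds antibody complexes or dying cells. The alternative pathway cleaves C3 with a convertase that contains factor B (Cfb) and is stabilised by properdin (Cfp). The terminal components, C6 among them, assemble into the membrane attack complex, while the small fragments of C3 and C5 act on the receptors C3ar1 and C5ar1. Hepatocytes are the classical source of most circulating components, C1q is known to come mainly from macrophages, and properdin is made by myeloid cells.

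The samples were liver tumours of C57BL/6 mice, raised by forcing plasmids into the liver through a hydrodynamic injection into the tail vein and collected 14 weeks later. NRAS.MYC.ND tumours followed constructs for human N-Ras (19 µg per mouse) and human c-Myc (1 µg) with 2 µg of a plasmid for Sleeping Beauty transposase, an enzyme that inserts the constructs into the genome. AKT1.MYC tumours followed Akt1 (10 µg) and human c-Myc (10 µg) with 5 µg of the transposase plasmid. Both models thus share MYC, the transposase and the wild-type host's own complement genes. The labels do not say what ND stands for, what drives the constructs, or how many mice or tumours were pooled. The dissociated tissue was depleted of dead cells, and 1 droplet library of transcript 3′ ends was sequenced per model.

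With 1 library per model there is no replicate, so no difference has a test: folds compare these 2 libraries, and intervals are exact 95% intervals that cover counting error only. The libraries held 42416125 UMIs (unique molecular identifiers, 1 per captured transcript) in 6312 barcodes for NRAS.MYC.ND and 64516171 in 10766 for AKT1.MYC. Filters left 5634 and 9398 cells, whose median depths were 4240 and 1987 UMIs. The libraries shared 17 barcodes, 13 of them among kept cells. Levels are CPM, the UMIs of a gene scaled to 1000000 UMIs of its gate, and a gene was called higher at 2-fold or more where at least 10 UMIs were seen over both libraries. Values below are given for NRAS.MYC.ND first and AKT1.MYC second unless named.

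Mononuclear phagocytes, the monocytes and macrophages of the tumour, numbered 1601 and 3271 cells. None of the 9 genes was used for gating. Inside this gate, cells were called Kupffer-like (349 and 433), monocyte-like (458 and 711) or lipid-associated macrophage-like (629 and 1825), and 165 and 302 fitted none of these. The gates did not hold the same cells in both libraries. Kupffer-like cells, named for the resident macrophages of the liver, carried Clec4f at 2331 and 365 CPM, Timd4 at 186 and 17.6 CPM and Cd5l at 7168 and 1081 CPM. Monocyte-like cells carried the monocyte genes Ly6c2 at 454 and 103 CPM and Ccr2 at 616 and 172 CPM, and the macrophage gene Trem2 at 211 and 746 CPM. Lipid-associated macrophages also carried the Kupffer genes Cd5l, at 2303 and 90.5 CPM, and Clec4f, at 198 and 23.7 CPM. Hepatocyte markers also differed inside the hepatocyte gate (445 and 458 cells), where 16 of 16 markers summed to 48445 and 9034 CPM while the 13 duct markers summed to 4028 and 12611 CPM. T and NK cells (1393 and 89), which make no C1q, served as a measure of free RNA, the RNA released by other cells that enters every droplet. Their median depths, 2895 and 2859 UMIs, were alike.

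Promoters of 7 of the 9 genes were read from RefSeq on GRCm38.p6, each reaching 250 bases upstream of the gene's start. The C1q chain genes lie side by side on the minus strand of chromosome 4, in the order C1qb (136880129 to 136886187), C1qc (136889804 to 136893065) and C1qa (136895917 to 136898803). They span 18675 bases, with gaps of 3616 and 2851 bases. The promoters of C1qb and C1qc are shown because these neighbours were detected together in the same cells, C3, C6 and Cfp because they followed other cell types or differed between libraries. Capitals mark matches to any of 6 motifs searched on both strands: GAGGAA (the core of the PU.1 motif), TGCTGA (the core of the MAF motif), TTGCNNAA (C/EBP), TTCNNNGAA (the GAS element), the ISRE and the NF-kappaB site. Bases that GENCODE counts as transcribed were left out.
C1qb: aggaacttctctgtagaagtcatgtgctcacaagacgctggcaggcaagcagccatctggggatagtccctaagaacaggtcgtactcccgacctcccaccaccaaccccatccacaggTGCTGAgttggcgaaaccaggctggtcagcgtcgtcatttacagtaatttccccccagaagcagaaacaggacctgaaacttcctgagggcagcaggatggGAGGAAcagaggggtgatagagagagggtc
C1qc: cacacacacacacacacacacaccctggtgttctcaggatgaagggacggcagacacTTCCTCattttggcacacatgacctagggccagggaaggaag
C3: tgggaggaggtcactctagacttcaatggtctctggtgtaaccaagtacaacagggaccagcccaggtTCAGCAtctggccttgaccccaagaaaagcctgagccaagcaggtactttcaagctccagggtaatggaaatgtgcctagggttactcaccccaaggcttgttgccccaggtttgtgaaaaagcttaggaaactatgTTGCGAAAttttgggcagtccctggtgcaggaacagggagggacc
C6: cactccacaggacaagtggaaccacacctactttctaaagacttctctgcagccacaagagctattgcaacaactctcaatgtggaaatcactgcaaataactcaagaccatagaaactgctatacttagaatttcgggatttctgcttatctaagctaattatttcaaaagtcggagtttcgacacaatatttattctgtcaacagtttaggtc
Cfp: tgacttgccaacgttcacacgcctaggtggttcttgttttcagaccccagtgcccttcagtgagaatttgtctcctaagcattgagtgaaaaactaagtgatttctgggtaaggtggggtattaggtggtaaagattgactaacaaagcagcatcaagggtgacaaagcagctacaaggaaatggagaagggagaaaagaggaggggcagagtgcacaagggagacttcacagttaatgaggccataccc
All run 5′ to 3′ along the gene's own strand. They cover chr4:136886201-136886450 (minus strand) for C1qb, chr4:136893066-136893164 (minus) for C1qc, chr17:57228137-57228386 (minus) for C3, chr15:4726960-4727174 (plus) for C6 and chrX:20931556-20931805 (minus) for Cfp. The C1qb window held GAGGAA at positions -30 to -25 and TGCTGA at -131 to -126, counted back from the RefSeq start. The C1qc window held GAGGAA on the opposite strand at -193 to -188. The C3 window held TTGCGAAA, a match to the C/EBP letters, at -45 to -38, and TGCTGA on the opposite strand at -182 to -177. The C6 and Cfp windows held no match. Of the promoters not shown, that of C3ar1 held TGCTGA on the opposite strand at -144 to -139. Among 32851 promoter windows, 23.3% held GAGGAA, 16.1% TGCTGA, 9.56% TTGCNNAA, 7.02% TTCNNNGAA, 2.98% the ISRE and 0.356% the NF-kappaB site. The matches describe letters in these windows only.

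C1q was a phagocyte product in both libraries. Of all UMIs in kept cells, phagocytes held 94.4% and 79.6% of C1qa, 94.3% and 79.1% of C1qb, and 95.2% and 81.5% of C1qc. The level of C1qa in phagocytes was 4613 CPM (4577 to 4650) and 4680 CPM (4646 to 4715), a log2 ratio of AKT1.MYC over NRAS.MYC.ND of 0.02. C1qb stood at 6634 CPM (6591 to 6678) and 5388 CPM (5350 to 5425), a log2 ratio of -0.30. C1qc stood at 4701 CPM (4664 to 4738) and 2931 CPM (2904 to 2959), a log2 ratio of -0.68. All 3 chains were thus within 2-fold, and only C1qc came near it.

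The background is needed to read the lower gates. T and NK cells held C1qa at 123 and 559 CPM, C1qb at 171 and 730 CPM and C1qc at 96.4 and 343 CPM. Levels of the 3 chains in endothelial cells, fibroblasts and epithelial cells ran from 72.2 CPM for C1qa in duct-like cells of NRAS.MYC.ND to 487 CPM for C1qb in fibroblasts of AKT1.MYC. Of the 127 C1qa UMIs in fibroblasts of NRAS.MYC.ND, 91 came from 1 cell. The summed markers of other cell types inside phagocytes were also compared: the duct list summed to 96.2 and 2189 CPM and the neutrophil list to 235 and 757 CPM, while the hepatocyte list summed to 1400 and 763 CPM. The free RNA share that these foreign markers give for phagocytes was 11.3% for NRAS.MYC.ND against 26.3% for AKT1.MYC. C1q was over 2-fold higher in endothelial cells of AKT1.MYC too (log2 ratios of 1.72, 1.27 and 1.31 for C1qa, C1qb and C1qc), at levels below those of T and NK cells. It is read as background, but these endothelial cells were deeper, with a median of 6944.5 UMIs against 2859. CPM alone therefore cannot settle that reading.

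**Figure D1:**
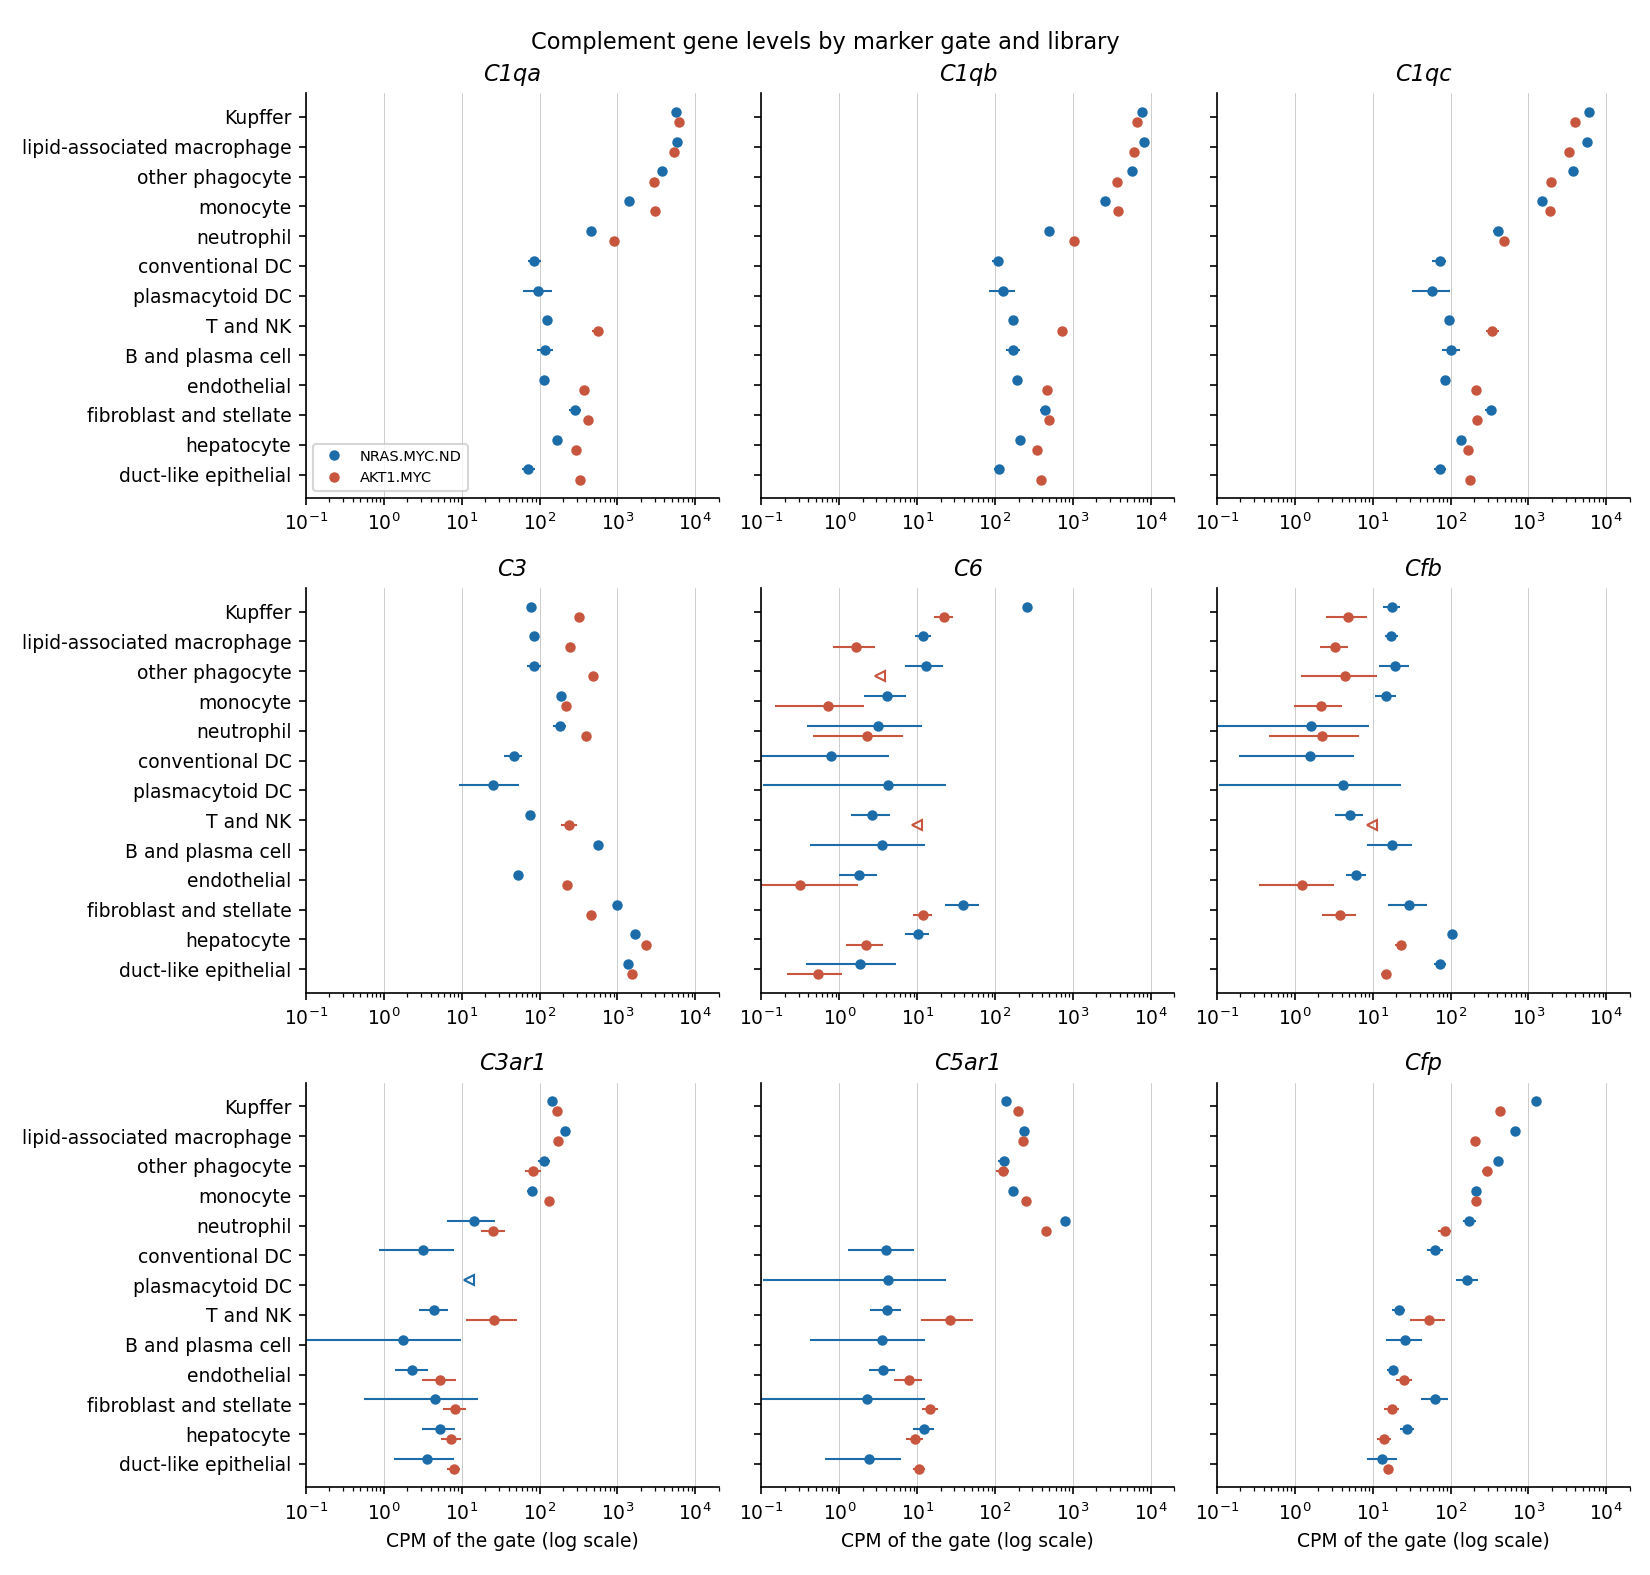
Level of each of the 9 genes (CPM of the gate, log axis) in 13 marker gates, with 1 point per library (blue NRAS.MYC.ND, red AKT1.MYC); bars are exact 95% Poisson intervals, open triangles give the limit of 3 counts where no UMI was seen, and gates under 20 cells are left out. The C1q chains, C3ar1 and Cfp are highest in macrophages, C3 and Cfb in hepatocytes and duct-like cells, C6 in Kupffer-like cells, and C5ar1 in neutrophils; the C3 of B cells and of fibroblasts in NRAS.MYC.ND rests on a few cells described in the text.

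Among phagocytes, Kupffer-like cells and lipid-associated macrophages held more C1q than monocytes. In NRAS.MYC.ND, C1qa was 5659 CPM (5581 to 5738) in Kupffer-like cells and 5776 CPM (5714 to 5839) in lipid-associated macrophages, whose intervals overlap, and 1410 CPM (1367 to 1453) in monocytes. In AKT1.MYC the same gates held 6195 CPM (6098 to 6293), 5293 CPM (5240 to 5346) and 3069 CPM (3016 to 3123). The step from macrophage to monocyte was thus smaller in AKT1.MYC, whose monocyte-like cells carried 2.18-fold more C1qa (log2 ratio 1.12, 1.07 to 1.17) and 1.49-fold more C1qb. The phagocytes that fitted no named group held C1qa at 3785 CPM (3671 to 3902) and 2952 CPM (2842 to 3066), above the monocytes in NRAS.MYC.ND and with an interval overlapping theirs in AKT1.MYC. C1qc in monocyte-like cells, at 1492 and 1882 CPM, differed least (1.26-fold). The monocyte gate of AKT1.MYC also carried more Trem2 and less Ly6c2 and Ccr2, as given above, and the part of this in its C1q was not tested.

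The chains were also counted per cell at matched depth. Each cell was thinned to 1000 UMIs, which left out 43 and 551 shallower phagocytes. All 3 chain genes were then detected in 92.9% and 88.6% of Kupffer-like cells, in 88.3% and 80.5% of lipid-associated macrophages, and in 22.3% and 50.4% of monocyte-like cells. In T and NK cells the same was true of 0.363% and 8.43%, which is the background of the measure. The monocyte-like cells of NRAS.MYC.ND were split: 44.9% had no C1q UMI, their median was 1 C1q UMI per 1000, and their 90th percentile was 15. In AKT1.MYC, 11% had none, with a median of 6 and a 90th percentile of 21. T and NK cells had medians of 0 and 2, so low values in AKT1.MYC overlap its background.

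**Figure D2:**
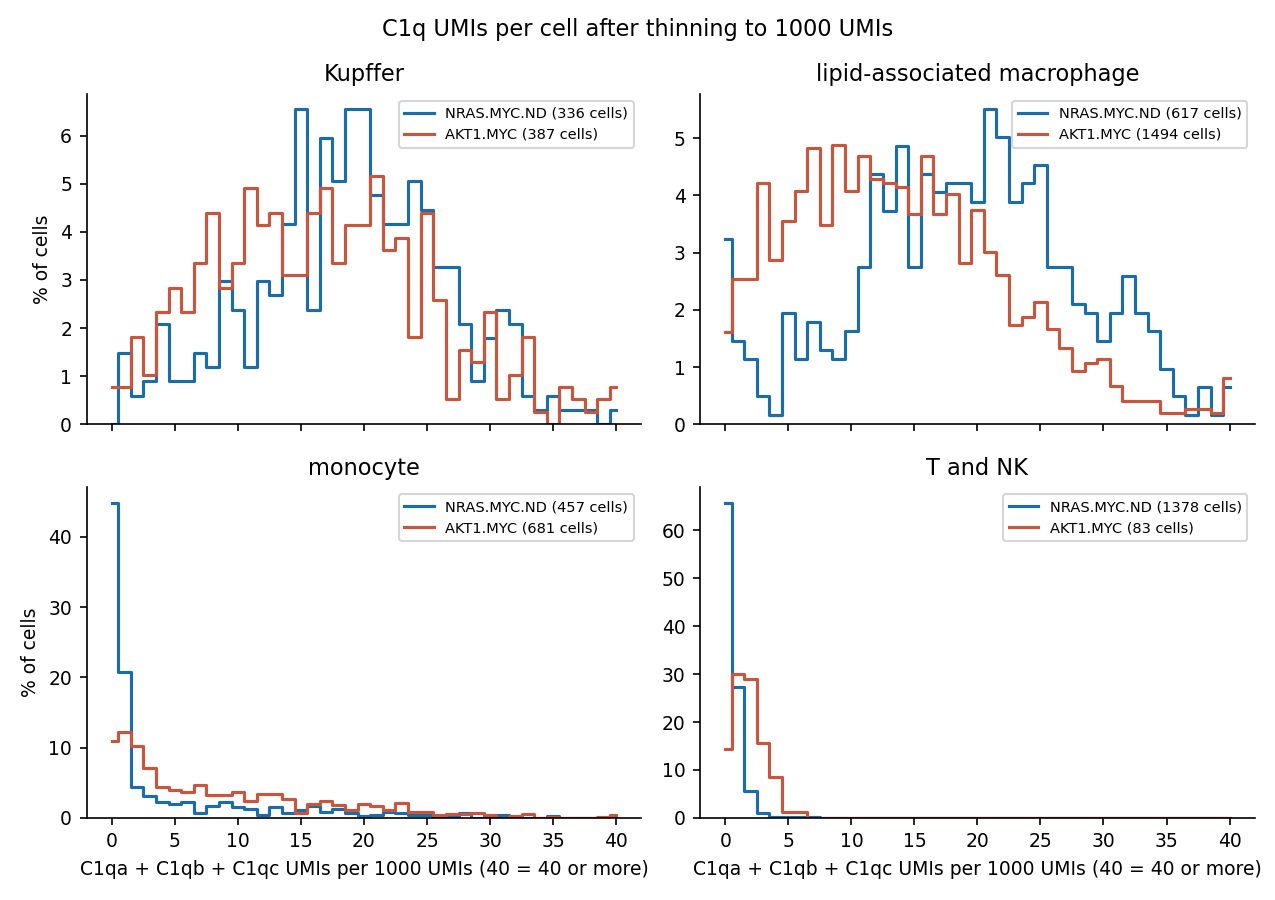
Distribution of the summed UMIs of C1qa, C1qb and C1qc per cell (x axis) as a share of cells (y axis, %) after thinning every cell to 1000 UMIs, in 4 gates, with the number of cells in each legend. Kupffer-like cells of both libraries centre at medians of 19 and 17, lipid-associated macrophages at 19 and 13, and monocyte-like cells at 1 and 6.

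The balance between the chains differed between libraries in every phagocyte gate. C1q holds its A, B and C chains in equal number, and UMI shares of the 3 genes are compared here only between libraries. In phagocytes C1qa made up 28.9% (28.7 to 29.1) and 36.0% (35.8 to 36.2) of C1q UMIs. C1qc made up 29.5% (29.3 to 29.7) and 22.5% (22.4 to 22.7), while C1qb made up 41.6% and 41.4%. In monocyte-like cells the C1qb share differed as well, at 47.0% (46.3 to 47.8) and 43.6% (43.1 to 44.2). In each of the 4 phagocyte gates the share of C1qa was higher and that of C1qc lower in AKT1.MYC. The C1qc share was 31.1% and 23.4% in Kupffer-like cells, 29.0% and 22.6% in lipid-associated macrophages, and 27.2% and 21.4% in monocyte-like cells. Free C1q RNA in T and NK cells had a C1qc share of 24.7% (22.8 to 26.7) and 21.0% (17.5 to 24.9), intervals that overlap. In the hepatocyte gate, also a measure of background, the C1qc share was 26.4% (24.4 to 28.5) and 20.7% (19.6 to 21.8), a shift in the same direction whose intervals do not overlap. The cause was not tested, and with 1 library per model a model and its library cannot be told apart.

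**Figure D3:**
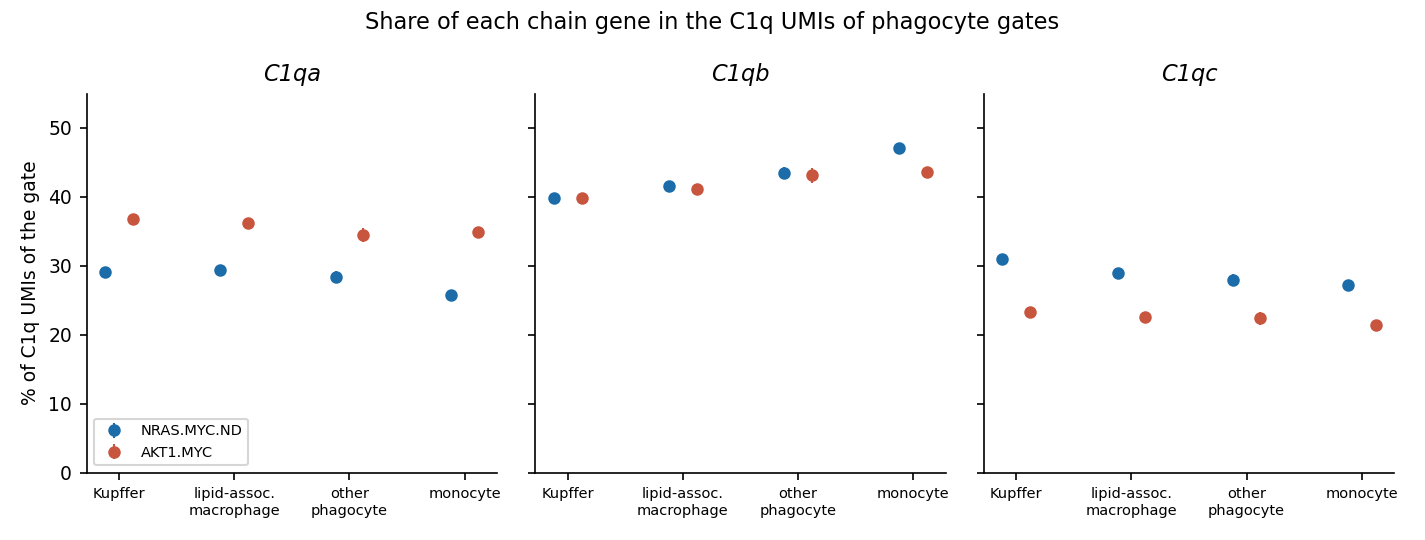
Share of each chain gene in all C1q UMIs of a gate (y axis, %) in 4 phagocyte gates, with 1 point per library and exact 95% binomial intervals. C1qa shares of AKT1.MYC lie above those of NRAS.MYC.ND in every gate (36.0% against 28.9% over all phagocytes) and C1qc shares below (22.5% against 29.5%).

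C3, the component on which all pathways meet, was an epithelial transcript. In hepatocyte-gate cells it stood at 1664 CPM (1622 to 1708) and 2346 CPM (2310 to 2382), a log2 ratio of 0.50, and in duct-like cells at 1372 CPM (1316 to 1429) and 1543 CPM (1522 to 1564), a log2 ratio of 0.17. Epithelial cells held 52.9% and 75.7% of all C3 UMIs. At 1000 UMIs per cell, C3 was seen in 49.1% and 73.7% of hepatocyte-gate cells and in 63.8% and 69.1% of duct-like cells, against 8.85% and 21.7% of T and NK cells. Over all UMIs C3 thus stayed within 2-fold in both epithelial gates, but in the hepatocyte gate the log2 ratio was 1.19 with equal weight per cell and 1.08 after thinning, past 2-fold.

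The highest C3 came from a rare cell. A cluster of 32 and 4 cells, named from 6 mesothelial markers (Msln, Upk3b, Upk1b, Lrrn4, Gpm6a and Wt1), held C3 at 11282 CPM (10986 to 11583) and 9178 CPM (8310 to 10113), with a C3 UMI in every cell. Mesothelial cells form the outer lining of the liver. The 32 cells held 30.9% of all C3 UMIs of the NRAS.MYC.ND library, and the 4 cells 0.577% of those of AKT1.MYC. Cfb was also high in them, at 168 CPM (134 to 208) in NRAS.MYC.ND. Most of these cells, 19 of the 32, had passed no single marker gate, 9 passed the mesothelial gate, 3 the fibroblast gate and 1 the B and plasma cell gate.

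Those 3 cells decide the C3 value of fibroblasts. Over the whole fibroblast and stellate gate (43 and 657 cells), C3 stood at 976 CPM (886 to 1072) and 458 CPM (438 to 478), 2.13-fold higher in NRAS.MYC.ND, but 337 of its 430 UMIs there came from the 3 cells. Without them C3 was 236 CPM in 40 cells of NRAS.MYC.ND, a log2 ratio of 0.96 (0.66 to 1.27) in the opposite direction, towards AKT1.MYC. In the same way 271 of the 324 C3 UMIs of the 245 B and plasma cells came from 1 cell of that cluster. In phagocytes, C3 was 107 CPM (101 to 112) and 267 CPM (259 to 275), beside 75.3 and 242 CPM in T and NK cells. The level of the pooled phagocytes thus lay above that background in NRAS.MYC.ND and near it in AKT1.MYC. With free RNA subtracted the direction of the 2.5-fold difference reversed. Monocyte-like cells lay further above the T and NK level in NRAS.MYC.ND, with C3 at 191 CPM (176 to 208) and 39.7% of the C3 UMIs of phagocytes. In AKT1.MYC they did not, at 219 CPM (205 to 234). In Kupffer-like cells of AKT1.MYC (318 CPM), 346 of 796 C3 UMIs lay in 5 of 433 cells.

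Factor B, the protease of the alternative convertase, was 2-fold or more lower in AKT1.MYC in each of the 10 gates where it was compared. These gates share cells, as the phagocyte and epithelial gates contain others of the 10. They also include endothelial cells, where Cfb was close to the T and NK level in NRAS.MYC.ND. Over all kept cells Cfb was 26.7 and 11.4 CPM, so the 10 gates are not independent of each other. In hepatocyte-gate cells Cfb stood at 104 CPM (93.7 to 116) and 22.7 CPM (19.3 to 26.6), 4.58-fold higher in NRAS.MYC.ND. Duct-like cells held 73.4 CPM (60.9 to 87.7) and 14.8 CPM (12.8 to 17), a 4.95-fold difference. In phagocytes the values were 17.1 CPM (14.9 to 19.4) and 3.27 CPM (2.42 to 4.33), beside 5.07 CPM in T and NK cells of NRAS.MYC.ND and 0 UMIs in those of AKT1.MYC, which allows up to 9.81 CPM. Fibroblasts held 29.5 CPM (15.7 to 50.4) and 3.85 CPM (2.24 to 6.16), from 13 and 17 UMIs. Without the 3 mesothelial-like cells of that gate, NRAS.MYC.ND held 17.8 CPM, from 7 UMIs. The log2 ratio was then -2.21 (-3.55 to -0.69), an interval that includes 2-fold. The hepatocyte and duct-like values of NRAS.MYC.ND do not have overlapping intervals, and neither do those of AKT1.MYC. By pooled UMIs, hepatocyte-gate cells thus lay above duct-like cells in both libraries. The mesothelial-like cells given above, at 168 CPM, lay above both in NRAS.MYC.ND. Hepatocyte markers were lower in the AKT1.MYC gate too (48445 against 9034 CPM), and their part in the difference was not tested. After thinning, Cfb was seen in 5.97% and 1.96% of hepatocyte-gate cells but in 2.5% (0.304 to 8.74) and 2.15% (1.35 to 3.23) of duct-like cells. At 1000 UMIs no difference between libraries was thus detectable in duct-like cells. Nor did hepatocyte-gate cells lie above duct-like cells in AKT1.MYC at that depth. The 2-fold call ended after thinning in duct-like cells (log2 ratio -0.81) and with equal weight per cell in the hepatocyte gate (-0.65), and under both settings in Kupffer-like cells (-0.88 and -0.76). Cfb lies on chromosome 17 (34856374 to 34862518, minus strand) and overlaps Gm20547 (34856412 to 34882042), which had 0 UMIs in both libraries, so how reads of the shared stretch were assigned is uncertain.

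Properdin, which stabilises that convertase, was a macrophage transcript and was lower in AKT1.MYC. Kupffer-like cells held Cfp at 1256 CPM (1219 to 1293) and 429 CPM (403 to 455), a 2.93-fold difference. Lipid-associated macrophages held 669 CPM (648 to 691) and 207 CPM (197 to 218), a 3.23-fold difference. The Kupffer marker list summed to 3318 and 264 CPM in that gate, and its part in the difference was not tested. Monocyte-like cells held 214 CPM (197 to 231) and 209 CPM (196 to 223), with overlapping intervals. So the order in NRAS.MYC.ND ran from Kupffer-like cells to lipid-associated macrophages to monocytes, while in AKT1.MYC the last 2 could not be told apart. Thinned cells with a Cfp UMI were 64.9% and 33.1% of Kupffer-like cells and 40.4% and 17.9% of lipid-associated macrophages, against 2.83% and 7.23% of T and NK cells. Outside the macrophages, the 48 plasmacytoid dendritic cells of NRAS.MYC.ND held Cfp at 163 CPM (116 to 222), with a UMI in 18.8% of thinned cells, and the 99 conventional dendritic cells held 63.6 CPM. In neutrophils Cfp was 173 and 84.2 CPM, a 2.06-fold difference that did not hold: 59 of the 109 UMIs of NRAS.MYC.ND came from 1 cell, and counting each cell equally gave a log2 ratio of 0.05 in place of -1.04.

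C6, the terminal component, marked Kupffer-like cells of NRAS.MYC.ND. It stood there at 255 CPM (238 to 272), from 896 UMIs, and at 21.9 CPM (16.5 to 28.6), from 55 UMIs, in AKT1.MYC, an 11.6-fold difference with a log2 ratio of -3.54 (-3.96 to -3.14). Thinned to 1000 UMIs, 15.8% (12 to 20.1) and 0.775% (0.160 to 2.25) of these cells had a C6 UMI, against 0.363% of T and NK cells in NRAS.MYC.ND and 0 of 83 in AKT1.MYC, which allows a share of up to 3.61%. Of the C6 UMIs of phagocytes, 90.4% and 78.6% lay in the Kupffer-like gate. Lipid-associated macrophages held 12 and 1.63 CPM, and monocyte-like cells 4.07 CPM and, from 3 UMIs, 0.717 CPM (0.148 to 2.1). In NRAS.MYC.ND, 49 of 69 C6 UMIs of lipid-associated macrophages lay in 5 of 629 cells. Of the 12 in monocyte-like cells, 9 lay in 5 of 458 cells.

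The difference in C6 was smaller among cells that still carried Clec4f. In the AKT1.MYC gate, 31 of the 55 C6 UMIs lay in 5 cells, and 50 of them lay in the 161 cells with a Clec4f UMI. In those cells C6 was 68.6 CPM, against 310 CPM in the 248 such cells of NRAS.MYC.ND, a log2 ratio of -2.18 (-2.62 to -1.77). Cfp in the same cells was 1317 and 585 CPM, a log2 ratio of -1.17 (-1.32 to -1.03), and C1qa was 5628 and 6643 CPM, a log2 ratio of 0.24. C6 was also seen in the fibroblast gate, at 38.6 CPM (22.5 to 61.8) and 11.8 CPM (8.79 to 15.4), from 17 and 52 UMIs. In NRAS.MYC.ND, 14 of the 17 lay in 5 of the 43 cells. This gate, of 43 and 657 cells, held 1.56% of all C6 UMIs of NRAS.MYC.ND and 32.1% of the 162 of AKT1.MYC. Hepatocyte-gate cells held 10.1 and 2.17 CPM. The 2-fold call of C6 ended with equal weight per cell in the hepatocyte gate (log2 ratio -0.55), after thinning in fibroblasts (-0.26) and lipid-associated macrophages (-0.69), and with free RNA subtracted in monocyte-like cells (-0.48).

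The receptor for the C3 fragment was found at like levels in the phagocytes of both libraries. C3ar1 stood at 157 CPM (150 to 163) in phagocytes of NRAS.MYC.ND and 157 CPM (150 to 163) in those of AKT1.MYC, a log2 ratio of -0.00 (-0.09 to 0.09). Lipid-associated macrophages held 212 CPM (201 to 225) and 175 CPM (165 to 185), Kupffer-like cells 143 CPM (131 to 156) and 167 CPM (151 to 184), and monocyte-like cells 79.6 CPM (69.8 to 90.5) and 134 CPM (123 to 146). In AKT1.MYC the Kupffer-like and lipid-associated intervals overlap. The ratio in monocyte-like cells passed 2-fold with equal weight per cell (log2 ratio 1.13). Neutrophils, at 14.3 and 25.6 CPM, and T and NK cells, at 4.46 and 26.2 CPM, lay far below. Phagocytes held 95.1% and 83.6% of all C3ar1 UMIs.

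The receptor for the C5 fragment was instead highest in neutrophils. C5ar1 stood there at 798 CPM (730 to 871) and 445 CPM (410 to 482), a log2 ratio of -0.84 (-1.02 to -0.67), and was seen in 59.6% (53.2 to 65.8) and 36.0% (32.2 to 39.9) of thinned neutrophils. The difference passed 2-fold with equal weight per cell and after thinning (log2 ratio -1.21 in both). T and NK cells showed C5ar1 in 0.726% and 4.82%. The neutrophil marker list, all 17 genes, summed to 228540 and 67612 CPM in the same gates, and its part in the difference was not tested. A split by granule genes, chosen after these values were seen, separated neutrophils without a UMI of Camp, Ngp or Ltf (173 and 572 cells) from those with one (83 and 121). Those genes mark granules made while neutrophils mature. C5ar1 was 1215 CPM (1085 to 1355) and 477 CPM (435 to 522) without them, a log2 ratio of -1.35, and 496 CPM (427 to 574) and 353 CPM (293 to 422) with them, a log2 ratio of -0.49.

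Phagocytes held C5ar1 at lower and closer levels, 187 CPM (180 to 195) and 223 CPM (216 to 231). Lipid-associated macrophages, at 235 and 231 CPM, had overlapping intervals, and monocyte-like cells, at 172 CPM (157 to 188) and 248 CPM (233 to 264), differed 1.44-fold. Most thinned phagocytes with a UMI of either receptor had none of the other, but thinning left few cells with either. C3ar1 was seen in 14.5% and 14.7% of them and C5ar1 in 14.6% and 19.2%. Without thinning, lipid-associated macrophages showed C3ar1 in 69.3% and 36.3% of cells and C5ar1 in 61.5% and 40.9%. The NRAS.MYC.ND shares must overlap, so the thinned counts do not place the receptors on different cells. Among all thinned phagocytes C5ar1 was seen in 24.3% of cells with C3ar1 and in 13% of those without in NRAS.MYC.ND, and in 26.2% and 18.0% in AKT1.MYC. Inside the gates the AKT1.MYC shares were closer, 20.5% and 19.4% in lipid-associated macrophages and 22.8% and 21.4% in monocyte-like cells, while in NRAS.MYC.ND they were 28.9% and 17.8%, and 29.2% and 11.1%. Cfp was likewise seen in 44.3% of thinned phagocytes with C1qa and 13.1% without in NRAS.MYC.ND, and in 21.1% and 13.3% in AKT1.MYC.

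Over all phagocytes, 3 of the 9 genes (C6, Cfb and Cfp) were 2-fold or more higher in NRAS.MYC.ND, where 9.23% of the 15756 genes measured were, and 1 (C3) was higher in AKT1.MYC, where 19.1% were. The median log2 ratio was -0.30 for the 9 and 0.14 for all genes. The same 3 and C3 stood apart in Kupffer-like cells (background 9.46% and 16.3%) and in lipid-associated macrophages (8.17% and 18.8%). In monocyte-like cells 2 were higher in NRAS.MYC.ND (C6 and Cfb, background 9.98%) and 1 in AKT1.MYC (C1qa, background 16.4%). The C6 call there rests on 12 and 3 UMIs. In neutrophils, with 7 genes measured, 1 was higher in NRAS.MYC.ND (10.2% of all genes) and 2 in AKT1.MYC (30.9%). Under both other scalings these counts were 2 and 0. The 2 were C1qb, at 491 and 1042 CPM, and C3, at 181 and 393 CPM, beside the T and NK levels given above. In the NRAS.MYC.ND neutrophils, 211 of the 286 C1qa UMIs came from 1 cell, and with equal weight per cell the log2 ratio of C1qa went from 0.98 to 2.47. The epithelial gate had 2 genes, C6 and Cfb, higher in NRAS.MYC.ND (15.4%) and 2, C1qa and C1qb, higher in AKT1.MYC (15.3%). C1qa and C1qb lay below the T and NK levels of AKT1.MYC in that gate. Fibroblasts had 4 (C3, C6, Cfb and Cfp, background 17.8%) and 1 (C5ar1, background 9.28%). Those counts include the 3 mesothelial-like cells of the gate. Of the 28 Cfp UMIs in fibroblasts of NRAS.MYC.ND, 21 came from 1 cell. C5ar1 in fibroblasts of AKT1.MYC, at 14.7 CPM, was not above the T and NK level of 26.2 CPM, which rests on few UMIs. Endothelial cells had 2 (C6 and Cfb, 12.9%) and 6 (10.8%), the latter being the C1q chains, C3, C3ar1 and C5ar1, none of them above the level of T and NK cells in AKT1.MYC. The other 2 were at background in NRAS.MYC.ND: C6, from 14 UMIs, lay below the T and NK level there and Cfb, from 48 UMIs, close to it.

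**Figure D4:**
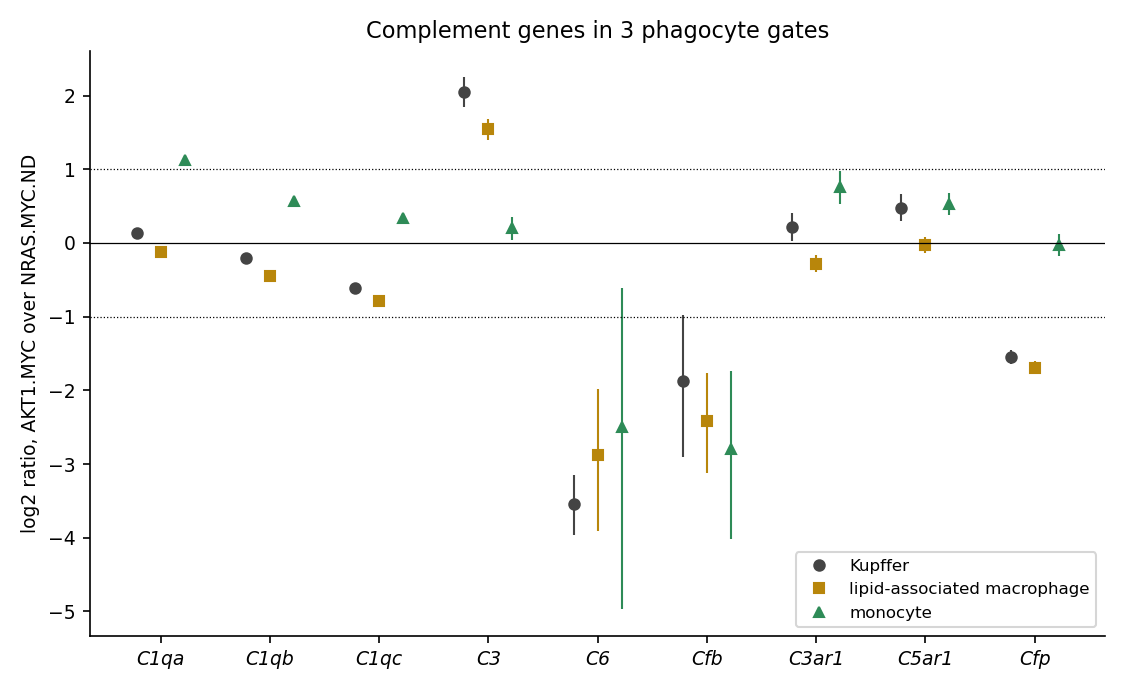
log2 ratio of AKT1.MYC over NRAS.MYC.ND (y axis) for the 9 genes in Kupffer-like, lipid-associated macrophage and monocyte gates, with exact 95% intervals for counting error; dotted lines mark 2-fold. C6 and Cfb lie below the lower line in all 3 gates, Cfp in the 2 macrophage gates (-1.55 and -1.69) but not in monocytes (-0.03), and C1qa lies above the upper line in monocytes alone (1.12). C6 in monocytes rests on 12 and 3 UMIs.

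The profile of each gene over gates and libraries was compared with 7012 other genes, as a description over 23 gate and library points that share libraries, depth and free RNA. C1qa and C1qb followed each other most closely (Pearson r of log2(CPM + 1) of 0.996), and Ms4a7, a macrophage membrane gene, came next to C1qa (0.989). C1qc followed C1qb (0.993) and Adgre1, the gene of the F4/80 antigen (0.991). C3ar1 followed C1qc (0.966) and Adgre1 (0.961). C3 was nearest to the epithelial genes Ptprf (0.942) and Cxadr (0.937) and to angiotensinogen, Agt (0.933). Cfb was nearest to transferrin, Trf (0.855), Bckdha (0.846) and afamin, Afm (0.818). C6 had the loosest neighbours, Kcna2 (0.817), the Kupffer gene Timd4 (0.814) and Dmpk (0.810). Ms4a7, Adgre1 and Timd4 were themselves gating markers, so they follow the phagocyte gates by construction. C5ar1 followed Ccl6 (0.952), Tlr13 (0.940) and Cd300lf (0.937), and Cfp followed the Fc receptor Fcgr4 (0.964), Lair1 (0.959) and Wfdc17 (0.949).

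The other 43 complement genes on the list were read in the same gates. In epithelial cells 35 were measured: 18 were 2-fold or more higher in NRAS.MYC.ND, 2 in AKT1.MYC and 15 neither (background 15.4% and 15.3%). Their median log2 ratio was -1.0 against 0.12 for all genes. In the hepatocyte gate 15 of 32 were higher in NRAS.MYC.ND, 0 higher in AKT1.MYC and 17 neither (median -0.93, all genes 0.27, background 14.5% and 21.9%). Of the terminal genes 4 of 5 were higher in NRAS.MYC.ND (median -2.99): Hc, which encodes C5, was 231 and 11 CPM, and C8g, a chain of C8, 229.6 and 7.53 CPM. C9, named after its values were seen, was the exception at 20.8 and 36.6 CPM. Of the lectin recognition genes 2 of 4 were higher, and the protease gene Masp2 was 115 and 4.2 CPM and the mannose-binding lectin gene Mbl2 22.8 and 3.33 CPM. The proteases with C2 and C4 had 4 of 7 higher in NRAS.MYC.ND (median -1.77), among them C1s1 at 113 and 33 CPM and C1ra at 51.3 and 10.4 CPM. The C1r, C1s, C4, Cd55 and Cd59 genes have near-identical copies in the mouse genome that counting may split, so their values are uncertain. The soluble regulators had 3 of 8 higher, such as C4bp, an inhibitor of the classical convertase, at 149.7 and 40.3 CPM. Membrane regulators had 0 of 4 and receptors 2 of 4 higher in NRAS.MYC.ND. Some abundant genes stayed within 2-fold, C4b at 314 and 284 CPM, factor I (Cfi) at 466 and 259 CPM, vitronectin (Vtn) at 384 and 704 CPM and clusterin (Clu) at 8174 and 13888 CPM. The lower hepatocyte markers of the AKT1.MYC gate stand beside all of these values, and their part was not tested.

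In duct-like cells (81 and 1334), 12 of 31 were higher in NRAS.MYC.ND, 3 higher in AKT1.MYC and 16 neither (median -0.83, all genes -0.07, background 12.6% and 8.97%). C1s1 was 89.7 and 8.43 CPM, C2 95.2 and 26.3 CPM, Hc 27.3 and 1.22 CPM, and Vtn 493 and 192 CPM, while C4b, at 204 and 186 CPM, was alike. Vitronectin thus lay on opposite sides in the hepatocyte and duct-like gates (log2 ratios of 0.87 and -1.36).

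**Figure D5:**
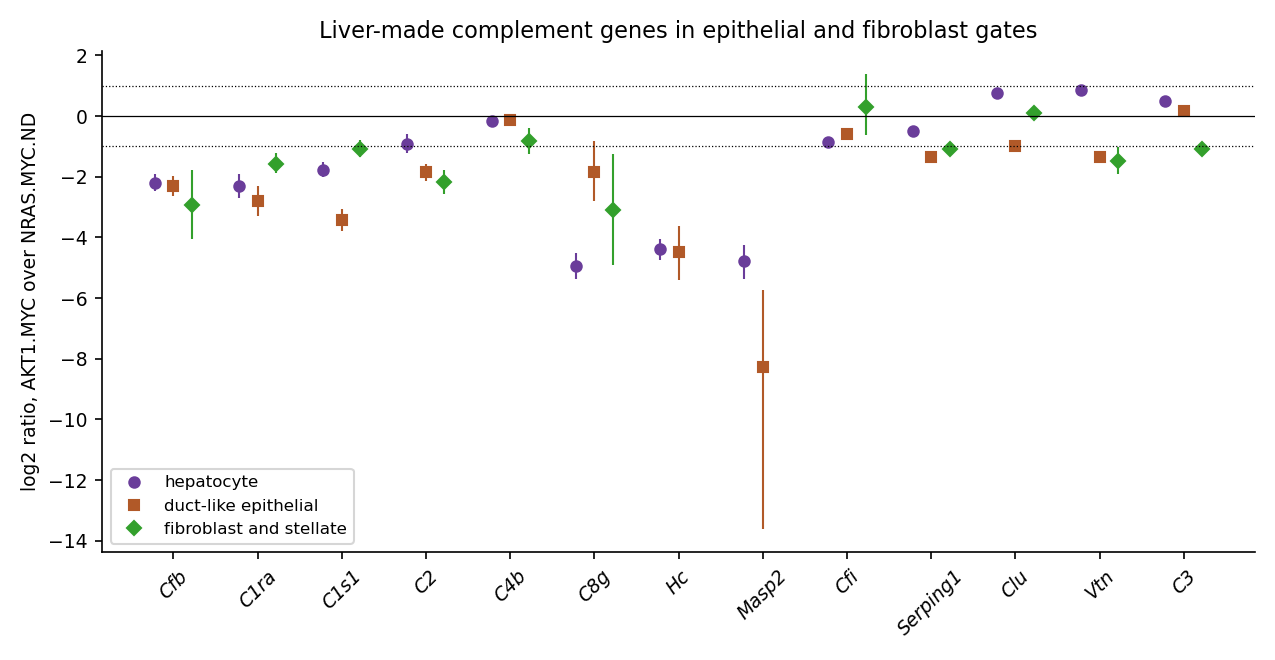
log2 ratio of AKT1.MYC over NRAS.MYC.ND (y axis) for Cfb, C3 and 11 other complement genes in the hepatocyte, duct-like and fibroblast gates, with exact 95% intervals for counting error and dotted lines at 2-fold; points with under 10 UMIs are left out. Hc, C8g and Masp2 lie lowest in hepatocytes (-4.39, -4.93 and -4.78), while C4b, Clu and C3 stay near or within the dotted lines there.

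Fibroblasts and stellate cells had 12 of 24 other genes 2-fold higher in NRAS.MYC.ND, 0 higher in AKT1.MYC and 12 neither (background 17.8% and 9.28%). The median was -1.0 (all genes -0.17), from only 43 cells in NRAS.MYC.ND. Colec11, a collectin that recognises sugars, was 1173 and 220.3 CPM, and its partner Colec10 was 129 and 4.76 CPM. All 3 lectin recognition genes measured were higher in NRAS.MYC.ND. Serping1, the C1 inhibitor, was 2180 and 1034 CPM, C2 170 and 37.6 CPM, and Cd55, a membrane brake on convertases, 65.8 and 2.04 CPM. The mesothelial markers summed to 665 and 36.9 CPM and the endothelial list to 2757 and 489 CPM in the same gate, and their part was not tested.

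Phagocytes had 11 of 35 other genes higher in NRAS.MYC.ND, 11 higher in AKT1.MYC and 13 neither (median -0.13, all genes 0.14, background 9.23% and 19.1%). Terminal genes had 4 of 5 higher in NRAS.MYC.ND, at low levels (Hc at 6.01 and 0.534 CPM), and soluble regulators 5 of 8 higher in AKT1.MYC. Of these, Vtn was 12.2 and 54.8 CPM in phagocytes and 19.1 and 42.5 CPM in T and NK cells, and Cfi was 13.7 and 28 CPM beside 27.2 and 32.7 CPM. Vsig4, the complement receptor of the immunoglobulin family on Kupffer cells, was 787 and 124 CPM, and ficolin A (Fcna), a lectin pathway recognition protein, 348 and 55.3 CPM. Within Kupffer-like cells both remained apart, Vsig4 at 2072 and 442 CPM and Fcna at 962 and 200.3 CPM. The Kupffer marker list summed to 12167 and 2227 CPM in that gate, and its part in these differences was not tested. Itgam, the alpha chain of complement receptor 3, went the other way, at 54.6 and 151 CPM. Its partner Itgb2 was 214 and 153 CPM. Clu, a soluble regulator at 211 and 1672 CPM in phagocytes, was 274 and 1515 CPM in T and NK cells and is read as background.

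Endothelial cells (820 and 368) had 9 of 27 other genes higher in NRAS.MYC.ND, 5 higher in AKT1.MYC and 13 neither (median -0.01, all genes -0.11, background 12.9% and 10.8%). Higher in NRAS.MYC.ND were the regulator Cd55, at 343.5 and 93.2 CPM, the lectin protease Masp1, at 178 and 55.4 CPM, and C5ar2, the other receptor for the C5 fragment, at 25.7 and 4.38 CPM. Cd59a, which blocks the membrane attack complex, was 299 and 199 CPM and stayed within 2-fold. In neutrophils Fcna, at 84.3 and 14.3 CPM, and Itgb2, at 321 and 106 CPM, were higher in NRAS.MYC.ND. The Kupffer list summed to 932 and 146 CPM in the same neutrophils, and its part in the Fcna value was not tested.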

How the data were processed

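Single-cell 3′ RNA of 2 mouse liver tumour libraries, 1 per model, was analysed. The deposited matrices hold raw UMI counts per gene and barcode; Cell Ranger 6.1.2 and mm10 are named per the submitters' processing notes, and version 6.1.1 per the file headers. For the gene annotation, a release was not given in the sources used here. Barcodes under 500 UMIs or 250 genes, or over 20% mitochondrial UMIs, were removed (351 and 456). The automatic threshold of Scrublet, run in Scanpy 1.11.5, lay above the highest score and marked 0% of cells, so 327 and 912 top-scoring cells were removed instead, at an assumed 0.8% per 1000 barcodes.

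Cells were gated by 187 of 188 distinct markers (1 was not matched) for 15 cell types and 3 phagocyte groups. For each cell the detected markers of a type were counted, minus the number expected if 10% of its UMIs were free RNA. A cell needed a score of at least 2.5 and a lead of 1 over other types. Inside phagocytes the minimum was 1.5, with a lead of 1 between Kupffer and monocyte lists, and lipid-associated macrophages were taken from the remainder. Cells that passed no gate were left out. The scoring rule was chosen after seeing the data. Leiden clustering (33 clusters) gave an alternative and the mesothelial-like cluster.

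UMIs were summed per gate, with exact Poisson intervals for levels, exact conditional binomial intervals for ratios and Clopper-Pearson intervals for shares, all at 95%. Levels needed 20 cells and comparisons 40 per library; the mesothelial cells are given as values below those limits. Where no UMI was seen, the limit of 3 counts is given. With 1 library per group no test was made; nothing says how many animals a library holds. The ratio step was tested on simulated counts. The 9 genes, the 43 other complement genes and the gates were chosen with earlier results of these data known. Of the other complement genes, the text names examples from those 2-fold apart with at least 30 UMIs and an interval excluding 2-fold, and the most abundant, except 1 gene that is counted in its list and not reported here. Genes nearest in profile were taken among those reaching 50 CPM in a gate of at least 50 cells. Positions come from GENCODE vM21 on GRCm38 by identifier and promoters from RefSeq.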

Additional observations from a re-analysis of the deposited data

How the results depend on the processing

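No paired analysis was possible because each model has 1 library, and for the same reason no library could be left out. Of 53 ratios of the 9 genes, 26 were 2-fold or more; 13 of these kept that call under every setting and 13 did not, and 21 kept their sign. Median of ratios scaling moved the median of all genes by -0.38 log2 in neutrophils, -0.25 in the hepatocyte gate and 0.19 in fibroblasts, and by -0.13 in phagocytes. Reversed ratios were those of Cfp in neutrophils (0.0545 with a stricter gate, 0.0867 with classes from clusters, 0.0501 with equal weight per cell, 0.0015 after thinning), of C3 in fibroblasts (0.67 with classes from clusters, 0.96 without the mesothelial-like cells), and, with free RNA subtracted, of C3 in phagocytes (-7.81), lipid-associated macrophages (-6.09) and neutrophils (-4.44). The cause was not tested.

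Counts of the 9 genes moved as follows. In phagocytes, the 1 gene higher in AKT1.MYC became 0 with a stricter gate, with classes from clusters and with free RNA subtracted. In neutrophils, the 1 higher in NRAS.MYC.ND became 0 with a stricter gate and 2 under both other scalings, and the 2 higher in AKT1.MYC became 4 with a stricter gate, with classes from clusters, with equal weight per cell and with free RNA subtracted, and 0 under both other scalings. In fibroblasts, the 4 higher in NRAS.MYC.ND became 2 with classes from clusters and with equal weight, and 0 after thinning; the 1 higher in AKT1.MYC became 4, 4 and 3 there, and 2 under both other scalings and with free RNA subtracted. In endothelial cells, the 2 higher in NRAS.MYC.ND became 0 after thinning and with free RNA subtracted and 1 with at least 30 UMIs, and the 6 higher in AKT1.MYC became 1 without doublet removal and 3 with free RNA subtracted. In epithelial cells, the 2 higher in AKT1.MYC became 0 without doublet removal and 1 under both other scalings, and the 2 higher in NRAS.MYC.ND became 1 after thinning. Of the other complement genes, those 2-fold apart went from 22 to 11 in phagocytes and from 14 to 9 in endothelial cells after thinning. In neutrophils they went from 13 to 6 after thinning, 4 with free RNA subtracted, 8 with at least 30 UMIs and 20 with at least 1 UMI.

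The ratio of C6 in Kupffer-like cells ranged from -4.45 to -2.18, that of Cfp there from -1.67 to -1.17, that of C1qa in monocyte-like cells from 1.02 to 1.64, and that of Cfb in the hepatocyte gate from -2.44 to -0.65, the last with equal weight per cell. The Clec4f, granule gene and mesothelial alternatives were chosen after seeing the data. Depth limits Cfb and C6, which few cells hold at 1000 UMIs.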
